A study of Mus musculus with 22 samples.

Results

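The 9 genes for cardiac and conduction transcription factors described here, of 19505 distinct genes named on the array, were followed through 4 groups of mouse hearts: Gata4, Nkx2-5, Tbx5, Hopx, Irx3, Irx5, Tbx3, Shox2 and Isl1. They were chosen by gene symbol from the platform annotation, and each was represented by 1 probe set. Averaged over all 22 arrays, each of the 9 exceeded a log2 intensity of 4, and so belonged to the 21092 of 22206 gene probe sets that entered the tests. The hearts came from male C57/BL6NCr mice aged 3 to 6 months, housed singly at 30 °C, which were either wild-type or carried the TRα1 R384C+/m genotype (TRα1+m), a heterozygous mutation of thyroid hormone receptor α1 that weakens its binding of the hormone. Mice of each genotype drank tap water with 0.01% bovine serum albumin, or the same water with 0.5 mg/L of T3, the hormone form that activates the receptor, over 12 days. Each treatment was given to 6 wild-type and 5 TRα1+m mice, and every heart was hybridised to 1 Clariom S array. The mutation lies in the germ line, so that the receptor was altered in every tissue, and each RNA sample was a whole heart, in which atria, ventricles and the small conduction tissues were mixed.

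Gata4, Nkx2-5 and Tbx5 are activators of the myocardial gene programme that bind DNA together at many cardiac enhancers. Hopx is a homeodomain protein that does not bind DNA and acts through Srf and other partners. Irx3 and Irx5 are Iroquois homeodomain factors, known in the mouse for fast conduction through the ventricular Purkinje network and for the gradient of repolarization across the ventricular wall. Tbx3, Shox2 and Isl1 set up and keep the pacemaker programme of the sinoatrial node, where Shox2 and Tbx3 hold working-myocardium genes such as Nkx2-5 or Gja5 in check.

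Of the 9 factors 6 lay above the median negative-control probe set of their own array in all 22 arrays, and the other 3 did not. Gata4, Hopx and Irx3 exceeded 97.5% to 98.9% of the negative controls, Tbx5 89.6% to 97.0%, Nkx2-5 65.7% to 89.4% and Tbx3 58.4% to 80.5%. Irx5 was above the median negative control in 2 of 22 arrays, and Shox2 and Isl1 in 0 of 22, so signal above background was not shown for these 3 genes and their differences are given without a fold change. The median is a low bar. Nkx2-5 exceeded at most 89.4% of the negative controls and Tbx3 at most 80.5%, so their detection is less sure than that of Gata4, Hopx, Irx3 and Tbx5. Irx5 lay between 5.39 and 6.65, Shox2 between 5.16 and 6.33 and Isl1 between 4.04 and 6.14. The plot of levels by array shows this order.

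**Figure D1:**
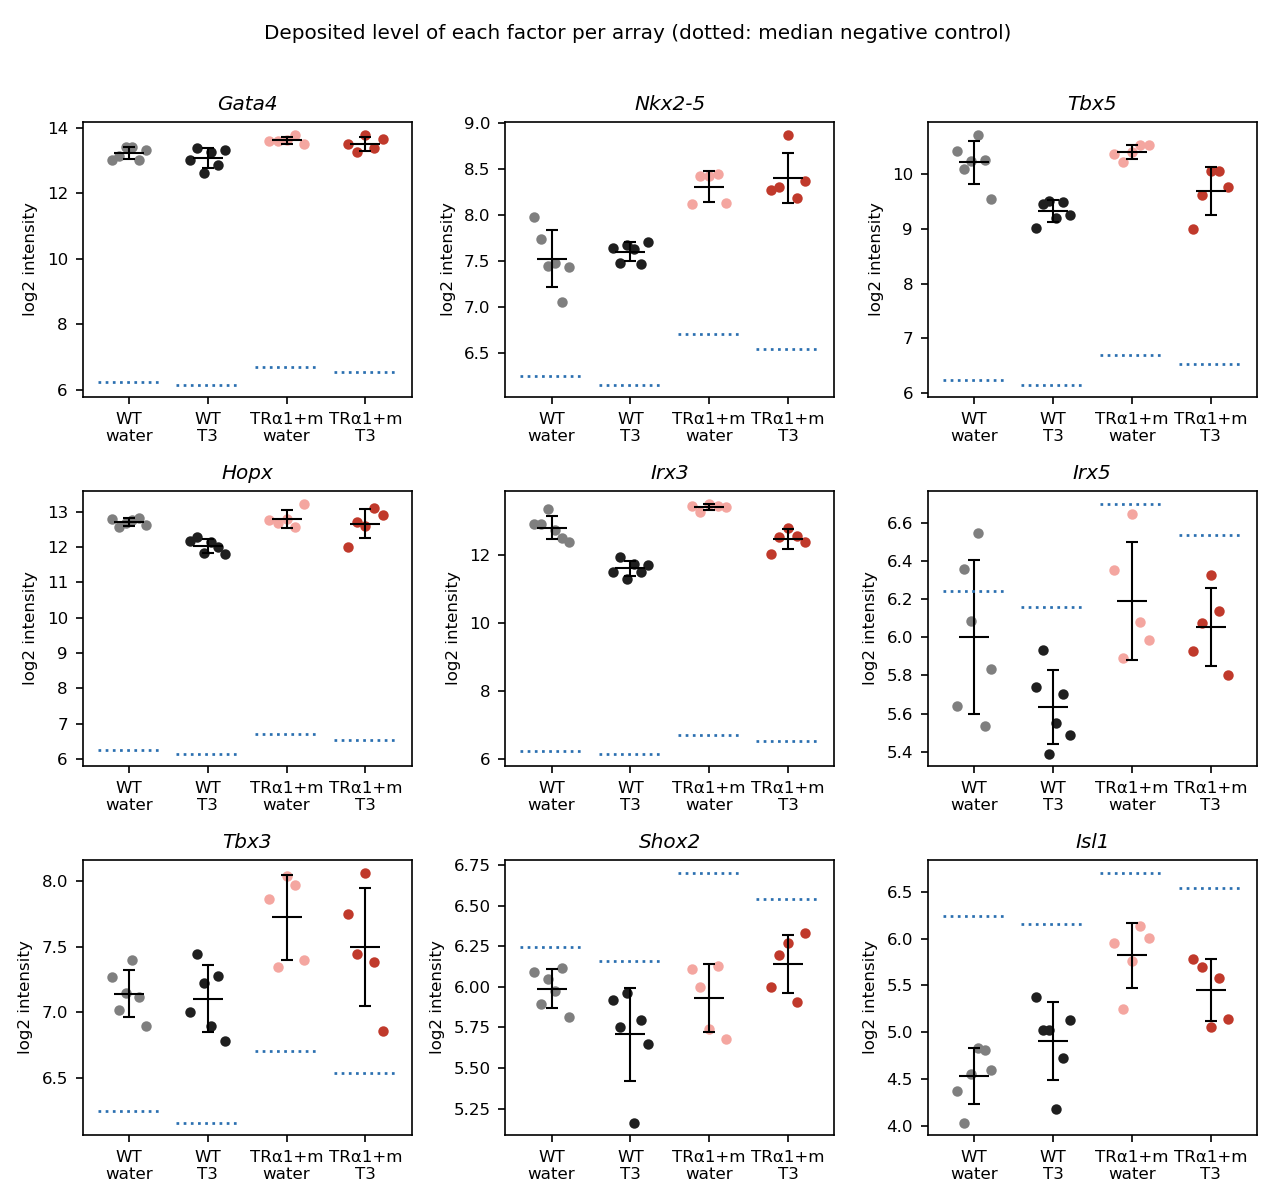
Deposited log2 intensity of each factor (vertical axes) in the 4 groups (horizontal axes), with 1 point per array, the group mean with its SD as a bar, and the median negative control as a dotted line (mean over the arrays of the group). Irx3, Tbx5 and Hopx sit lower on T3 than on water in wild-type hearts, and Irx5, Shox2 and Isl1 lie around or under the dotted line.

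The arrays of the 2 genotypes lay on different scales in the deposited values, and the difference between TRα1+m and wild-type hearts had a median over all tested probe sets of 0.36 on water and 0.35 on T3. The median negative control differed likewise, with 6.25 (water) and 6.16 (T3) for wild-type hearts and 6.70 and 6.54 for TRα1+m hearts. Within a genotype the T3 contrasts had a median difference of 0.01 in wild-type and -0.02 in TRα1+m, so that T3 effects could be read from the deposited values. Genotype differences are given both as deposited and after a quantile normalization over all 22 arrays together, with which this median difference became -0.02 for each treatment. As a check of the labels, 5 of 7 thyroid hormone controls changed on T3 in each genotype. Hcn2, a pacemaker channel, rose from 6.95 ± 0.44 (SD) to 9.94 ± 0.27 in wild-type and from 5.47 ± 0.31, under the negative controls, to 10.04 ± 0.54 in TRα1+m, and Myh7, the myosin of slow fibres, fell by 1.91 ± 0.25 (SE) and fell by 4.43 ± 0.28. The substitution itself cannot be read from probe set intensities.

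Hearts of T3-treated wild-type mice were first set against those on water, to ask which of these factors respond to the hormone. Irx3, Tbx5 and Hopx fell, 3 of the 9, and 0 rose, while Gata4, Nkx2-5 and Tbx3 did not pass the test. Of all tested probe sets 6.49% fell and 12.7% were called in either direction. The groups did not overlap for the same 3 genes, against 3.73% of all probe sets that were lower without overlap. In whole-heart RNA, fewer cells of a type and less RNA per cell cannot be told apart.

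Irx3, the Iroquois factor of the Purkinje network, had the smallest p of the 9. On water its log2 intensity in wild-type hearts was 12.37 at the lowest, 12.81 at the median and 13.33 at the highest, and on T3 it was 11.28, 11.59 and 11.93. Every T3 array thus lay under every water array. The difference was -1.19 ± 0.15 (SE, 95% interval -1.50 to -0.88), 2.28-fold lower on T3 (adjusted p = 4.2e-06, n = 6 and 6), with 6 of 6 T3 arrays below the water mean.

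Tbx5, the T-box activator whose reduced dose disturbs septation and conduction in mice and humans, moved the same way. Its log2 intensity ran from 9.56 over a median of 10.25 to 10.73 on water and from 9.02 over 9.35 to 9.52 on T3. The ranges missed each other narrowly, since a single water array, at 9.56, lay close to the highest T3 array. The difference was -0.90 ± 0.18, 1.86-fold lower on T3 (adjusted p = 0.00085, 6 of 6 arrays).

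Hopx, the homeodomain cofactor, ran from 12.56 over a median of 12.73 to 12.83 on water and from 11.81 over 12.07 to 12.29 on T3. The water arrays lay within a narrow band and all T3 arrays lay under it. The difference was -0.68 ± 0.15, 1.60-fold lower on T3 (adjusted p = 0.0026, 6 of 6 arrays). Hopx is also a known gene of the alveolar epithelium, and the other 5 lung epithelial markers (Sftpc, Sftpb, Sftpa1, Scgb1a1 and Ager) lay below the median negative control in every group.

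The remaining factors were not called in wild-type hearts. Gata4 differed by -0.14 ± 0.13 (95% interval -0.41 to 0.13, adjusted p = 0.59), with arrays from 13.02 to 13.43 on water and from 12.61 to 13.39 on T3. Nkx2-5 differed by 0.08 ± 0.14 (-0.20 to 0.36, adjusted p = 0.82), with arrays from 7.06 to 7.98 and from 7.46 to 7.71. The ranges of both genes overlapped widely, and the intervals leave room for a decrease of Gata4 to -0.41 and an increase of Nkx2-5 to 0.36. Tbx3, a repressor that keeps working-myocardium genes low in the sinoatrial node, differed by -0.04 ± 0.17 (-0.39 to 0.32, adjusted p = 0.94). Among the 3 genes at background level, Irx5 and Shox2 were lower by 0.37 ± 0.17 and 0.28 ± 0.13 and Isl1 higher by 0.38 ± 0.19, with adjusted p-values of 0.17, 0.18 and 0.25.

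The promoters of Irx3 and Hopx are shown because these genes fell together on T3, and because Hopx has 2 annotated starts. The set of promoter sequences used (GRCm38.p6) gave 6 windows for 5 of the 9 genes, each from 250 bases before to 50 bases after a start. Gata4, Tbx5, Tbx3 and Irx5 had no entry in this set. The windows were searched on both strands for AGGTCA, the half-site of thyroid hormone receptors, and its direct repeat with 4 bases between, which contains it, for AGGTGTGA (T-box), AAGTG (Nkx2-5 type), AGATAA (bound by Gata factors) and the CArG box bound by Srf. All windows lie on the minus strand and are written 5′ to 3′ in the direction of the gene, with matches in capitals. Irx3 (chr8:91801605-91801904) held 1 AAGTG at position -150 from the start. The upstream start of Hopx (chr5:77115074-77115373) held a CArG box at -83, and the downstream start (chr5:77095218-77095517) held AAGTG at -170 and -122 and, read as CACTT for the opposite strand, at 35 after the start, 3 matches in all.
Irx3: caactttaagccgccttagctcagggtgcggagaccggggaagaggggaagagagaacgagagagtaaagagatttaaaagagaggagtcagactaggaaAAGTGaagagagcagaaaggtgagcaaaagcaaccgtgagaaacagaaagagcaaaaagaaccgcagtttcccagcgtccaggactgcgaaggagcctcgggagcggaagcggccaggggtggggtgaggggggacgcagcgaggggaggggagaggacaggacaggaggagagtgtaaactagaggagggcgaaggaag
Hopx, upstream start: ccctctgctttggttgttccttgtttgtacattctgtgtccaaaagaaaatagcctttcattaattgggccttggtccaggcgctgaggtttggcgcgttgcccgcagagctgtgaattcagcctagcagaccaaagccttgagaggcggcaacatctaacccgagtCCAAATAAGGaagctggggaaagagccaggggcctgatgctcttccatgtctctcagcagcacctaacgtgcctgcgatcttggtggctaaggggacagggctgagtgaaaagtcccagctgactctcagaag
Hopx, downstream start: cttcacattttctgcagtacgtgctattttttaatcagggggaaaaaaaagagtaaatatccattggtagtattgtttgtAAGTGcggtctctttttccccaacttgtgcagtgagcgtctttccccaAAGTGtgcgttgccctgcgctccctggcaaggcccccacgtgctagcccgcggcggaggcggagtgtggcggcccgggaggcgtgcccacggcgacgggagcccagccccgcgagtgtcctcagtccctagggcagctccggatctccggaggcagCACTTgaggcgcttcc
Of 32851 promoters of the same length, 46.4% held AAGTG, 1.63% a CArG box, 16.3% AGGTCA, 0.0152% its direct repeat, 1.28% AGGTGTGA and 11.2% AGATAA. The receptor half-site was found in none of the 6 windows of these genes, which says only that these letters are not within them. The GC content was 56.0% for Irx3, 53.0% for the upstream and 59.0% for the downstream start of Hopx, beside a median of 52.7% over all promoters.

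Markers of other cell types moved with T3 as well. Among all 21092 tested probe sets 1320 rose in wild-type hearts and 1368 fell. In wild-type hearts 8 of 9 macrophage markers rose and the summed level of the list went from between 13.42 and 14.23 over the water arrays to between 14.87 and 15.06 over the T3 arrays. Of 8 endothelial markers 6 rose (15.78 to 16.15 on water, 16.33 to 16.60 on T3), and of 8 fibroblast markers 5 rose (18.20 to 18.48 and 18.51 to 18.69). Of 10 cardiomyocyte markers 3 fell, Ckm, Mybpc3 and Tnnt2, by 0.52 ± 0.10, 0.41 ± 0.11 and 0.27 ± 0.08, and the summed levels overlapped (21.41 to 21.53 on water, 21.36 to 21.46 on T3). Atrial markers gave 0 of 9 calls, with summed levels of 19.50 to 20.04 on water and 19.65 to 19.85 on T3. Of 7 ventricular markers 3 fell and 0 rose, with a median difference of -0.29, and their summed levels did not overlap (19.81 to 19.92 on water, 19.58 to 19.73 on T3). This list holds Irx4 and Hey2, which also belong to the other transcription factors described further on. In these 6 lists 0 markers had a group mean below the median negative control. Of 11 sinoatrial node and conduction system markers 2 rose and 3 fell, with summed levels of 11.43 to 11.91 on water and 11.89 to 12.17 on T3. Vsnl1 and Cpne5 of this list lay below the median negative control on T3. The part of cell composition in the falls of Irx3, Tbx5 and Hopx was not tested.

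In TRα1+m hearts, the same comparison asked whether the factors still respond when the receptor is mutated. Irx3 and Tbx5 fell, 0 factors rose, and Hopx did not pass the test. Of all tested probe sets 6.92% fell and 15.2% were called in either direction. The groups did not overlap for Irx3 and Tbx5, against 6.25% of all probe sets that were lower without overlap.

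Irx3 read 13.44, 13.27, 13.50, 13.43 and 13.39 in the TRα1+m hearts on water and 12.01, 12.52, 12.79, 12.56 and 12.38 in those on T3. The water hearts were tightly grouped and all T3 hearts lay below them. The difference was -0.95 ± 0.16, 1.94-fold lower (adjusted p = 0.00016, 5 of 5 arrays). Tbx5 read 10.36, 10.22, 10.40, 10.53 and 10.54 on water and 8.99, 9.63, 10.06, 10.05 and 9.77 on T3. The T3 heart at 8.99 was well under the others, and the highest at 10.06 still lay under every water heart. The difference was -0.71 ± 0.19, 1.64-fold lower (adjusted p = 0.012, 5 of 5 arrays), and without the heart at 8.99 it fell by 0.53.

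Hopx read 12.77, 12.68, 12.80, 12.57 and 13.24 on water and 12.01, 12.71, 12.60, 13.12 and 12.90 on T3. Apart from 1 low T3 heart, at 12.01, the 2 groups covered the same span. The difference was -0.14 ± 0.16 (95% interval -0.48 to 0.20, adjusted p = 0.68), and without that heart it was 0.02. Gata4 differed by -0.11 ± 0.14 (-0.40 to 0.19), Nkx2-5 by 0.09 ± 0.15 (-0.22 to 0.40) and Tbx3 by -0.22 ± 0.19 (-0.61 to 0.17), with adjusted p-values of 0.73, 0.79 and 0.53. Irx5, Shox2 and Isl1 stayed under the median negative control of their group in both treatments, with adjusted p-values of 0.73, 0.40 and 0.30. All 9 macrophage markers rose in TRα1+m hearts (summed level 12.81 to 13.30 on water, 14.84 to 15.25 on T3), with 5 of 8 endothelial and 4 of 8 fibroblast markers, and 1 of 10 cardiomyocyte markers (Myh6) rose and 0 fell. Among all 21092 tested probe sets 1738 rose in TRα1+m hearts and 1460 fell. Of 7 ventricular markers 2 fell and 0 rose, with a median difference of -0.36. Of 11 sinoatrial node and conduction system markers 3 rose and 1 fell, with 5 of the list below the median negative control on water and 2 on T3. The part of these shifts in the falls of Irx3 and Tbx5 was not tested.

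Whether the T3 effect itself differed between genotypes was read from the interaction of genotype and T3. None of the 9 factors was called by limma, where 0.275% of all tested probe sets were. An unadjusted p under 0.05 was found for 3, a level at which the share of all probe sets was not counted. These were Hopx, with a T3 effect 0.54 ± 0.22 less negative in TRα1+m (95% interval 0.08 to 0.99, adjusted p = 0.56), and 2 genes at background level, Shox2 at 0.49 ± 0.19 (adjusted p = 0.50) and Isl1 at -0.74 ± 0.28 (adjusted p = 0.49). The call of Hopx in wild-type and its absence in TRα1+m are therefore not shown to differ. For Irx3 the interaction was 0.24 ± 0.22 (-0.22 to 0.69) and for Tbx5 0.19 ± 0.26 (-0.35 to 0.72), so that the intervals leave room for a T3 effect smaller in TRα1+m by up to 0.69 and 0.72.

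**Figure D2:**
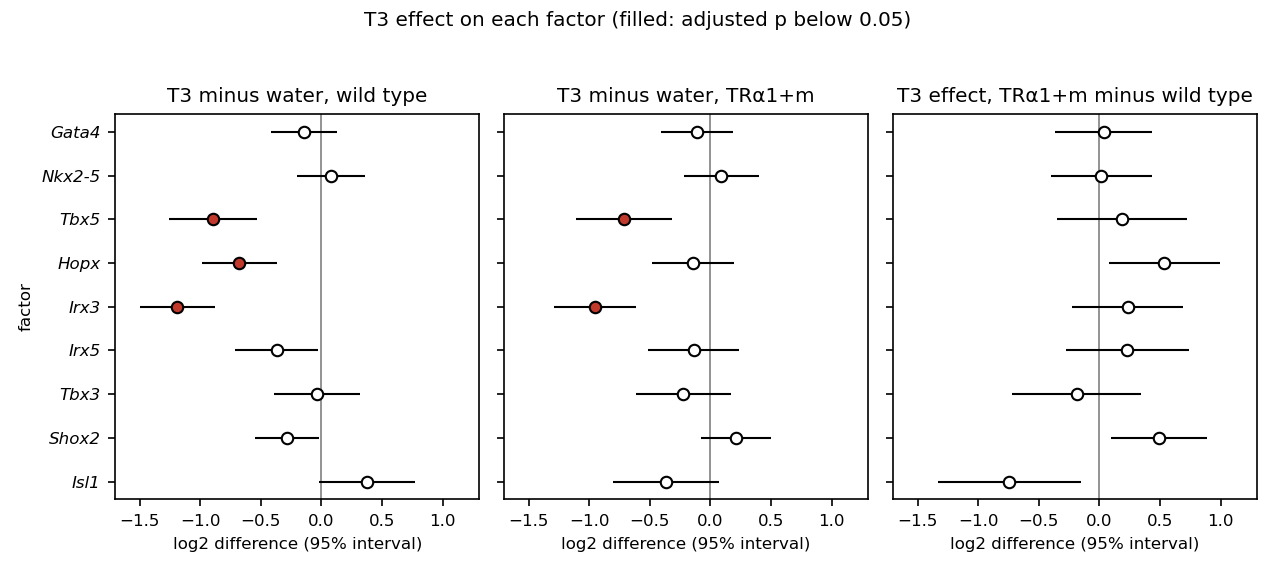
Log2 difference between T3 and water for each factor in wild-type hearts (left), in TRα1+m hearts (middle) and the difference between the 2 effects (right), as points with 95% intervals of the limma fit. Filled points passed an adjusted p of 0.05: Irx3, Tbx5 and Hopx in wild-type at -1.19, -0.90 and -0.68, Irx3 and Tbx5 in TRα1+m at -0.95 and -0.71, and none for the interaction.

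On the jointly normalized scale the 4 groups could be set in order. For Irx3 the order was TRα1+m on water (13.36 ± 0.12, SD), wild-type on water (12.81 ± 0.36), TRα1+m on T3 (12.39 ± 0.30) and wild-type on T3 (11.67 ± 0.23). Each neighbouring pair of this order passed the test after quantile normalization, with adjusted p-values of 0.0097, 0.044 and 0.0014, but none of the 3 was called under every scaling. The first pair was not called under either centring, the second not in the deposited values (-0.34, adjusted p = 0.071), and the third not with the median gene probe set at 0 (0.35, adjusted p = 0.076). For Tbx5 the water groups stood side by side (10.32 ± 0.33 in wild-type, 10.30 ± 0.15 in TRα1+m), as did the T3 groups (9.54 ± 0.44 in TRα1+m, 9.43 ± 0.20 in wild-type), and neither neighbouring pair passed the test. For Hopx the wild-type water, TRα1+m water and TRα1+m T3 groups lay at 12.74 ± 0.10, 12.74 ± 0.28 and 12.62 ± 0.43, not called against each other, and the wild-type T3 group lay lowest at 12.12 ± 0.15.

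The comparison of TRα1+m with wild-type hearts asked how the mutant receptor alters the factors at each hormone level. On water, the deposited values called 5 of the 9 higher in TRα1+m (Gata4, Nkx2-5, Irx3, Tbx3 and Isl1, of which Gata4 changed sign under other scalings), where 46.5% of all tested probe sets were called higher and 54.6% in either direction. After quantile normalization 4 were called, Nkx2-5, Irx3 and Isl1 higher and Shox2 lower, where 18.9% of probe sets were called higher and 21.0% lower, 39.9% in all. The groups did not overlap for 3 in the deposited values (Gata4, Nkx2-5 and Isl1), against 24.1% of all probe sets that were higher without overlap.

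Irx3 was 0.62 ± 0.16 higher in TRα1+m on water in the deposited values (adjusted p = 0.0022) and 0.55 ± 0.16 higher after quantile normalization (adjusted p = 0.0097). With each array centred on its median gene probe set or its median negative control the differences were 0.12 and 0.16 and were not called. Nkx2-5, whose arrays ran from 7.06 to 7.98 in wild-type and read 8.11, 8.42, 8.42, 8.44 and 8.13 in TRα1+m, was 0.78 ± 0.14 higher as deposited (adjusted p = 9.8e-05) and 0.38 ± 0.14 after quantile normalization (adjusted p = 0.035). The deposited ranges did not overlap and the normalized ones did, and under the 2 centrings the difference was 0.29 and 0.33 and was not called. Gata4 read 13.59, 13.62, 13.62, 13.80 and 13.51 in TRα1+m and lay between 13.02 and 13.43 in wild-type. It was 0.40 ± 0.14 higher as deposited (adjusted p = 0.017) and 0.34 ± 0.14 after quantile normalization (adjusted p = 0.052). Its sign turned to -0.10 and -0.06 when arrays were centred. Centring takes the same amount from every probe set of an array, whereas quantile normalization moved the low Isl1 more (1.28 to 0.78) than Gata4. On water the median bacterial spike-in control, brighter than the negative controls, read 9.61 to 9.90 in wild-type and 9.47 to 9.65 in TRα1+m arrays. The dimmer ERCC spike-in controls read 4.77 to 4.92 and 5.04 to 5.36, so these controls did not share 1 shift between genotypes. Which scaling suits a bright gene was not tested. Tbx3, with overlapping ranges of 6.89 to 7.40 and 7.35 to 8.04, was called as deposited (0.58 ± 0.18, adjusted p = 0.0092) and not after quantile normalization (0.15 ± 0.18, adjusted p = 0.54). Of the marker lists on water as deposited, 4 of 9 macrophage markers were called lower and 1 higher, 4 of 8 fibroblast markers higher, and 2 of 10 cardiomyocyte markers higher and 4 lower. On this scale 46.5% of all tested probe sets were called higher, near the share of the fibroblast markers. After quantile normalization 8 macrophage markers were called lower and 0 higher, with a median of -0.63, 3 fibroblast markers higher and 2 lower, and 3 cardiomyocyte markers each way. Their part in these differences was not tested.

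Tbx5 and Hopx, which fell on T3 in wild-type hearts, were not called between genotypes on water, at 0.19 ± 0.18 and 0.09 ± 0.16 as deposited and at -0.02 ± 0.18 and 0.01 ± 0.16 after quantile normalization. Centring on the median gene probe set gave -0.30 for Tbx5, not called, and -0.40 for Hopx, called lower. Isl1 was called higher in TRα1+m on water under all 4 scalings, by 0.78 to 1.28, but its arrays, from 4.04 to 4.83 in wild-type and from 5.25 to 6.14 in TRα1+m, all lay under the median negative control of their array. Shox2, likewise at background level, was called lower after the 3 rescalings (-0.59, -0.56 and -0.52) and not in the deposited values (-0.06). For these genes the values describe probe signal at background and not a shown level of RNA.

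On T3, 7 of the 9 were called higher in TRα1+m in the deposited values (all but Tbx5 and Tbx3, with the sign turning under other scalings to as low as -0.06 for Gata4, -0.09 for Irx5 and -0.08 for Shox2), where 44.6% of all probe sets were called higher and 50.9% in either direction. After quantile normalization 3 were, Irx3, Hopx and Nkx2-5, where 16.7% of probe sets were called higher and 35.6% in either direction. Irx3 ran from 11.28 to 11.93 in wild-type hearts on T3 and from 12.01 to 12.79 in TRα1+m hearts on T3, with no overlap before or after normalization, as held for 25.6% and 9.34% of all probe sets that were higher. Its difference was 0.85 ± 0.16 as deposited (adjusted p = 0.00013), 0.73 ± 0.16 after quantile normalization (adjusted p = 0.0014), 0.47 with the negative controls at 0, called, and 0.35 with the median gene probe set at 0, not called.

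Hopx on T3 was 0.63 ± 0.16 higher in TRα1+m as deposited (adjusted p = 0.0021) and 0.50 ± 0.16 after quantile normalization (adjusted p = 0.015), while both centrings left it uncalled at 0.13 and 0.25. Nkx2-5 was 0.80 ± 0.14 higher as deposited (adjusted p = 9.6e-05), 0.37 ± 0.14 after quantile normalization (adjusted p = 0.041), 0.42 with the negative controls at 0, called, and 0.30 with the median gene probe set at 0, not called. No factor was called on T3 under all 4 scalings. The plot of genotype differences sets the 4 scalings side by side.

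**Figure D3:**
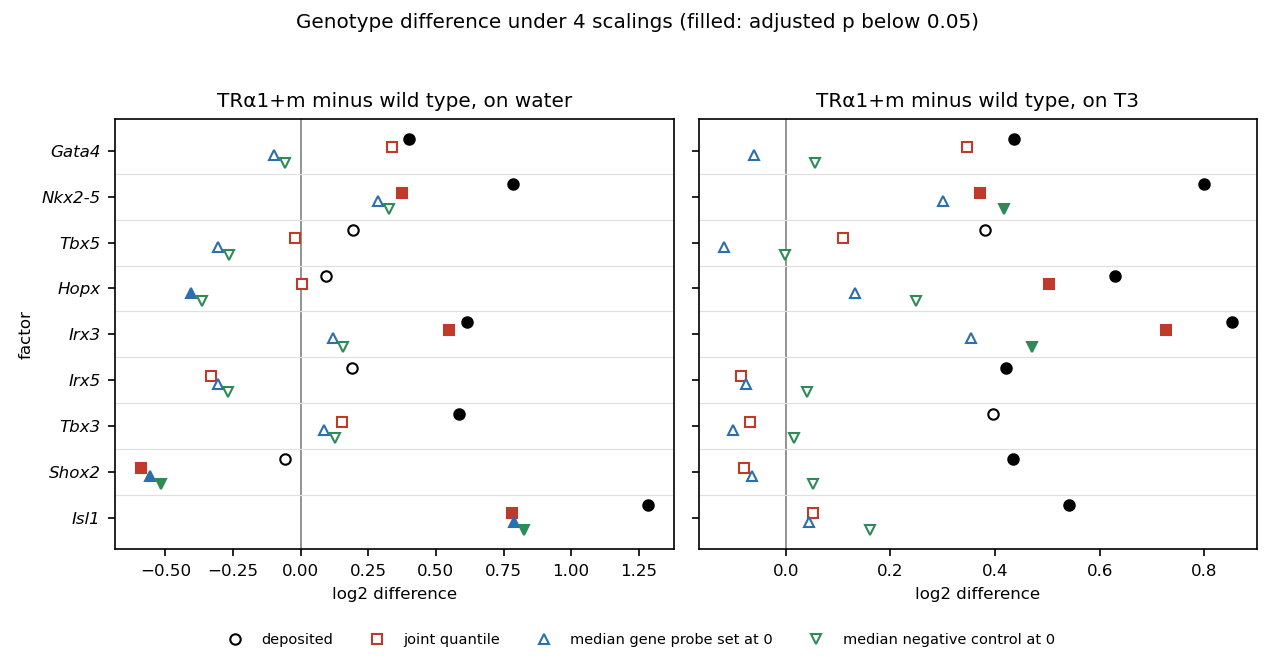
Log2 difference between TRα1+m and wild-type hearts for each factor on water (left) and on T3 (right), with 1 symbol per scaling of the arrays and filled symbols where the adjusted p was below 0.05. Irx3 and Nkx2-5 lie to the right of 0 under all 4 scalings in both panels, from 0.12 to 0.85 and from 0.29 to 0.80. So does Isl1, at background level, from 0.04 to 1.28, whereas Gata4, Tbx5 and Irx5 fall on both sides.

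The comparison of T3-treated TRα1+m hearts with untreated wild-type hearts asked whether the hormone brings the mutant to the wild-type state. In the deposited values Nkx2-5 (0.88 ± 0.14, adjusted p = 2.7e-05) and Isl1 were called higher and Tbx5 lower (-0.52 ± 0.18, adjusted p = 0.021), 3 of 9, where 55.1% of all tested probe sets were called in either direction. After quantile normalization 5 were called, where 41.5% of probe sets were. Nkx2-5 stayed higher at 0.44 ± 0.14 (adjusted p = 0.014) and Tbx5 lower at -0.78 ± 0.18 (adjusted p = 0.0012), Irx3 was lower at -0.41 ± 0.16 (adjusted p = 0.044), and Irx5 and Shox2 were lower at background level, although not in the deposited values (0.05 and 0.15). The call of Tbx5 in the deposited values was lost without the wild-type water heart at 10.73 (replicate 4) and without the T3-treated TRα1+m heart at 8.99 (replicate 1), with the difference between -0.65 and -0.34 over all arrays left out in turn, and also when only these 2 groups were fitted (adjusted p = 0.060). Hopx differed by -0.05 ± 0.16 as deposited and by -0.11 ± 0.16 after quantile normalization, and was not called on either scale. With the median gene probe set at 0, Hopx was called lower (-0.57, adjusted p = 0.0063) and Nkx2-5 was not called (0.35, adjusted p = 0.053).

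Beside the 9 genes, 33 of 34 other cardiac and conduction transcription factors on a list could be tested. In each group 6 of the 33 had a mean below the median negative control, except in TRα1+m on water, where 5 did, and the counts and medians include these genes. In wild-type hearts 10 of the 33 fell on T3 and 1 rose, with a median difference of -0.22. In TRα1+m hearts 11 fell and 2 rose, with a median of -0.16, where the medians over all probe sets were 0.01 and -0.02. Falls were called for 6.49% of all tested probe sets in wild-type and 6.92% in TRα1+m. Gata6, a paralogue of Gata4, fell by 1.47 ± 0.15 in wild-type hearts (adjusted p = 3.5e-07), and in TRα1+m hearts it fell by 1.77 ± 0.17 (adjusted p = 5.1e-08). Tbx20, a T-box factor of the adult myocardium, fell by 0.56 ± 0.11 and fell by 0.81 ± 0.12, and Prox1, a homeodomain factor of the muscle structure programme, fell by 0.96 ± 0.15 and fell by 0.88 ± 0.16. Irx4, the ventricular Iroquois factor, fell by 1.07 ± 0.20 in wild-type (adjusted p = 0.00051) and differed by -0.52 ± 0.22 in TRα1+m (adjusted p = 0.13). In TRα1+m hearts Mef2a and Sox6 also fell, by 0.66 ± 0.10 and by 1.00 ± 0.18. The rises were those of Id2, a helix-loop-helix inhibitor, in wild-type (0.48 ± 0.14) and in TRα1+m (0.75 ± 0.16), and of Myocd, a partner of Srf, in TRα1+m (0.87 ± 0.21), both named after their values were seen. For the interaction 0 of the 33 were called.

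**Figure D4:**
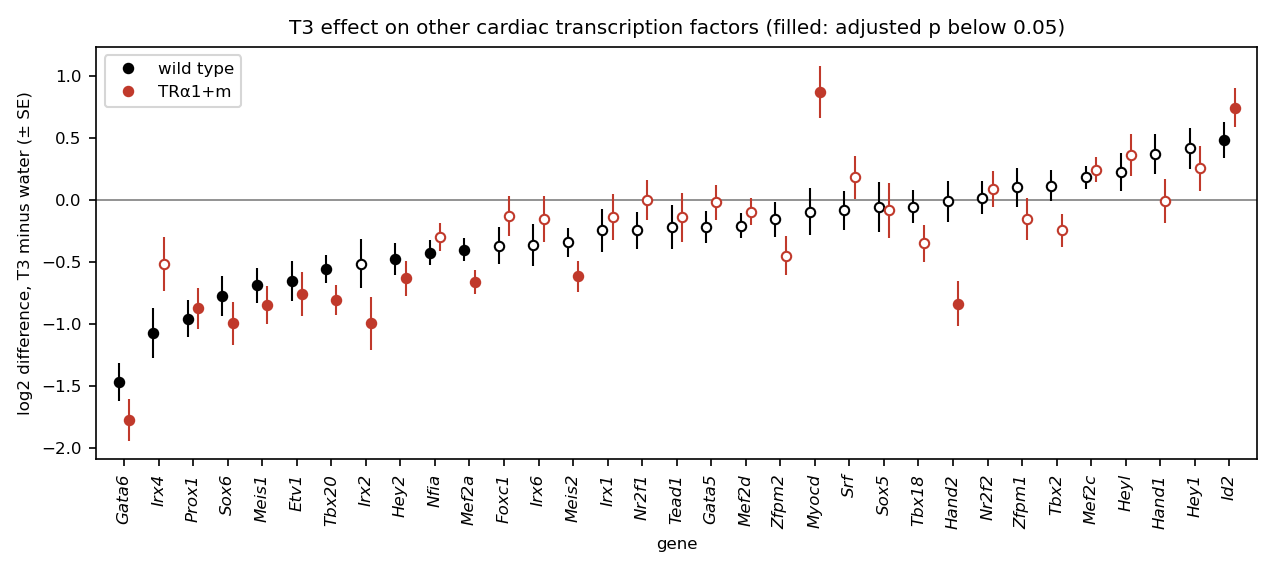
Log2 difference between T3 and water (vertical axis, with SE bars) for the 33 other cardiac transcription factors (horizontal axis, ordered by the wild-type value), in wild-type hearts in black and TRα1+m hearts in red, with filled points where the adjusted p was below 0.05. Gata6 stands lowest in both genotypes, at -1.47 and -1.77, and the called rises are Id2 in both and Myocd in TRα1+m.

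Between genotypes the same list had a median of 0.22 on water in the deposited values and of -0.08 after quantile normalization, with 11 called higher and 4 lower, and 6 called each way. As deposited, 46.5% of all tested probe sets were called higher and 1713 of 21092 lower. After quantile normalization the shares were 18.9% higher and 21.0% lower, so the counts of this list do not set it apart. Hey2, a ventricular repressor of the Notch pathway, was 1.05 ± 0.13 higher in TRα1+m on water (0.79 ± 0.14 after quantile normalization), and Nr2f2, the atrial and venous nuclear receptor, differed by -1.16 ± 0.14 (-1.29 ± 0.13 after quantile normalization). On T3 the values were 0.90 ± 0.13 and -1.09 ± 0.14 (0.58 and -1.26 after quantile normalization), so that these 2 genes were called on both scales and in both treatments. Hand2, a helix-loop-helix factor, was 1.46 ± 0.17 higher on water (1.01 after quantile normalization).

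Genes that are reported to be controlled by the 9 factors were followed in the same way, and 25 of 28 could be tested. On T3 2 rose and 6 fell in wild-type hearts and 3 rose and 5 fell in TRα1+m hearts, with medians of -0.07 and -0.03. The shares of all tested probe sets that fell were 6.49% and 6.92%. Kcnip2, a subunit of the transient outward potassium channel, fell by 2.96 ± 0.11 in wild-type (adjusted p = 6e-15), and in TRα1+m hearts it fell by 2.21 ± 0.12 (adjusted p = 1e-11). Cntn2, a cell adhesion protein that marks the Purkinje network, rose from 6.95 ± 0.27 to 9.45 ± 0.23 in wild-type and from 5.49 ± 0.45, under the negative controls, to 7.30 ± 0.43 in TRα1+m. Kcne1, a potassium channel subunit, fell from 7.07 ± 0.49 to 5.34 ± 0.58 and from 9.73 ± 0.34 to 5.68 ± 0.47, in each case to a level under the median negative control, and was the only gene of this list called for the interaction (adjusted p = 0.0035). Hcn4, the pacemaker channel of the sinoatrial node, rose from 7.46 ± 0.26 to 8.15 ± 0.25 in wild-type (adjusted p = 0.014) and from 6.51 ± 0.31, under the negative controls, to 8.03 ± 0.51 in TRα1+m (adjusted p = 6.7e-06). Gja5, Gja1, Nppa and Atp2a2, known targets of Tbx5 or Irx3 that were picked after their values were seen, gave -0.01 ± 0.22, -0.29 ± 0.10, 0.08 ± 0.11 and -0.01 ± 0.08 in wild-type and were not called there, and in TRα1+m Gja1 fell by 0.36 ± 0.11 (adjusted p = 0.034, and 0.070 after quantile normalization).

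Between genotypes 14 of the 25 were called lower and 5 higher in TRα1+m on water after quantile normalization, with a median of -0.40. As deposited these counts were 13 and 7, with a median of -0.39. On T3 13 were called lower and 2 higher after quantile normalization, with a median of -0.36. As deposited these counts were 9 and 6, with a smaller median of -0.11. Ryr2, the calcium release channel, differed by -0.73 ± 0.10 on water as deposited and by -0.83 ± 0.09 after quantile normalization, and Atp2a2, the calcium pump of the sarcoplasmic reticulum, differed by -0.61 ± 0.08 and -0.40 ± 0.09. Among all tested probe sets 21.0% were called lower on water and 19.0% on T3 after quantile normalization. As deposited 1713 of 21092 were called lower on water and 1328 on T3.

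The genes whose 4 group means followed those of Irx3, Tbx5 and Hopx most closely were taken from 17596 named genes, after quantile normalization and centring of each gene on its own mean. For Irx3 they were Gstm7, Cnksr1 and B4galt6, with root mean square differences of 0.050, 0.064 and 0.068 on the log2 scale. For Tbx5 they were Kyat3, Tmem144 and Pdk2, at 0.012, 0.026 and 0.037, and for Hopx Aasdhppt, Opcml and Sh3d21, at 0.036, 0.039 and 0.041. With 4 group means per gene, close matches arise among so many genes, and these values are a description.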

How the data were processed

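Hearts of 12 wild-type and 10 TRα1+m mice were measured on 22 Clariom S arrays, 1 per mouse. The deposited values were log2 intensities that the authors obtained with RMA in Transcriptome Analysis Console 4.0.1; the genome build was not given in the sources used here. Whether both genotypes were normalized together is not stated. Of 22206 gene probe sets, 19572 named 1 gene and 2634 were unnamed here, and 21092 with a mean above 4 were tested. A limma (3.58.1, R 4.3.3) model of the 4 groups, with eBayes and Benjamini-Hochberg adjustment over all tested probe sets, gave the T3, genotype and interaction contrasts. An adjusted p below 0.05 is a call. The code was tested on simulated data. Tables and plots used Python 3.11.15, numpy 2.4.6, pandas 2.3.3 and matplotlib 3.10.9.

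Intensities of 5222 negative-control probe sets gave the background. Precision is limited by how many arrays there were. Summed levels are the log2 of summed linear intensities. Alternatives were joint quantile normalization, centring on the median gene or negative-control probe set, other filters, trended and robust variances, array weights, the 2-factor linear model of the methods without moderation, only the groups compared, a replicate block, and arrays left out. The members, lists and tests were chosen with earlier results of these data known. From each list, up to 4 called genes with the smallest adjusted p were named. Each mouse is taken as 1 replicate. At most 0.036% of values were identical between arrays of a group. No scan dates were at hand, so no batch was examined. No value column was left unmapped.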

Additional observations from a re-analysis of the deposited data

Results flagged for a closer look

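Nkx2-5 in the T3-treated TRα1+m heart of replicate 3 stood apart from its group, with a log2 intensity of 8.87 against 8.36 for the nearest heart and 8.18 at the other end, so that the gap took 0.739 of the range. Of 36 combinations of gene and group examined this was the only one, and chance alone gives about 1 in 20. Without this heart the T3 difference of Nkx2-5 in TRα1+m was -0.03 instead of 0.09, neither of them called.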

How the results depend on the processing

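The calls of Irx3, Tbx5 and Hopx in wild-type and of Irx3 and Tbx5 in TRα1+m on T3 were kept under every alternative run and with each array left out (adjusted p of Tbx5 in TRα1+m 0.0047 to 0.049). Centring on the median gene probe set moved the median of all genotype differences to -0.14 on water and -0.15 on T3, and centring on the negative controls to -0.10 and -0.03. The latter also moved the split of T3 calls from 1320 higher and 1368 lower to 1892 and 893 in wild-type, and from 1738 and 1460 to 3185 and 774 in TRα1+m.

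Counts of factors called depended on the setting for the genotype. On T3 they went from 7 to 3 (quantile), 0 (median gene), 2 (negative controls) and 4 of the 6 that passed a mean above 6. They rose to 8 with array weights and in the 2-factor model without moderation. On water they went from 5 to 3 and 2 under the 2 centrings. For TRα1+m on T3 set against wild-type on water they went from 3 to 5 in 4 settings. These 5 calls were 1 higher and 4 lower under quantile normalization, and 0 higher and 5 lower under median gene centring. With trended and robust variances, and in the 2-factor model without moderation, they were 3 higher and 2 lower.

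Signs turned as follows. With the median gene at 0, on water Gata4 -0.097, Tbx5 -0.30, Hopx -0.40 and Irx5 -0.31; on T3 Gata4 -0.061, Tbx5 -0.12, Irx5 -0.076, Tbx3 -0.10 and Shox2 -0.064; and against untreated wild-type Gata4 -0.23, Irx5 -0.47, Tbx3 -0.16 and Shox2 -0.37. With the negative controls at 0, on water Gata4 -0.058, Tbx5 -0.27, Hopx -0.37 and Irx5 -0.27; on T3 Tbx5 -0.00055; against untreated wild-type Gata4 -0.00085, Irx5 -0.24 and Shox2 -0.14; for T3 in TRα1+m Gata4 0.057, Hopx 0.025 and Irx5 0.029; and for T3 in wild-type Tbx3 0.052. After quantile normalization, on water Tbx5 -0.022 and Irx5 -0.33; on T3 Irx5 -0.086, Tbx3 -0.068 and Shox2 -0.080; against untreated wild-type Irx5 -0.49, Tbx3 -0.12 and Shox2 -0.39; and for the interaction Nkx2-5 -0.0058. With water array 3 and T3 array 6 of the wild-type left out, Tbx3 gave 0.030 for T3 in wild-type. The cause was not tested.

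Leaving out 1 array at a time turned signs within these ranges: for the interaction Gata4 -0.058 to 0.10 and Nkx2-5 -0.10 to 0.11; for T3 in TRα1+m Hopx -0.25 to 0.023 and Nkx2-5 -0.027 to 0.15; for T3 in wild-type Nkx2-5 -0.016 to 0.17 and Tbx3 -0.10 to 0.029; on water Hopx -0.014 to 0.15 and Shox2 -0.11 to 0.0059; and against untreated wild-type Hopx -0.16 to 0.12 and Irx5 -0.040 to 0.16. None of these was called. On T3 the genotype call was kept in 12 of 22 such fits for Irx5 and in 17 of 22 for Isl1.

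Same-numbered arrays correlated from -0.266 to 0.335 in 31 pairs, 9 of them above 0.1. Between the wild-type water and T3 arrays the correlations ran from 0.031 to 0.293. Differently numbered arrays were not correlated for comparison, so this check cannot tell whether the numbers pair the mice. With the replicate block 6 factors instead of 7 were called between genotypes on T3, the call of Irx5 being lost (difference 0.39, adjusted p = 0.070), and the T3 calls were kept. Averaging several probe sets of a gene was not run, as each factor had 1, nor was a fit of only the groups compared for the interaction, which uses all 4. Signal over background limits Irx5, Shox2 and Isl1.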
